A study of Mus musculus with 15 samples.

Results

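The cytosolic heat shock proteins are a set of 10 chaperone genes, chosen by symbol from the probe table of the array. This set and the further gene lists were chosen with earlier results of these data known. Shares of all genes that stand beside them are therefore descriptions and not tests of the sets. They are the inducible HSP70 genes Hspa1a and Hspa1b, the constitutive HSP70 gene Hspa8, their helpers Hsph1, Dnajb1 and Bag3, the HSP90 genes Hsp90aa1 and Hsp90ab1, and the small heat shock proteins Hspb1 and Hspb8. Of the 10, 9 were measured, among 22180 genes tested, each by the probe set (transcript cluster) that carried its symbol alone and had the highest mean over the arrays. Hsp90ab1 was not matched in the probe table by symbol or by Entrez number and was not analysed here. Each measurement is a log2 signal after the robust multi-array average (RMA), so a difference of 1 is a doubling of signal. Levels are not compared between genes, because each gene has its own probes.

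Liver RNA came from 15 male ApoE3L.CETP mice, which carry human APOE*3-Leiden and CETP transgenes and so have a more human-like lipoprotein profile, with 1 array per mouse. All animals were 9-12 weeks old at the start, ate a diet of 60% fat and 0.25% cholesterol for 6 weeks before surgery, and were killed 20 days after it. In 6 mice the operation was Roux-en-Y gastric bypass (RYGB), 4 sham-operated mice were held to the weight of the bypass animals (BWm), and 5 sham-operated mice ate freely (Sham AL). RYGB against BWm sets bypass beside sham surgery at like body weight, BWm against Sham AL sets the lower weight beside free feeding within sham surgery, and RYGB against Sham AL takes both together. All groups share the transgenes, the sex and the diet, so nothing here speaks of mice without them. The 3 comparisons share arrays: BWm is in 2 of them, and so are the other groups, which means their differences are not independent.

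Heat shock proteins hold unfolded or damaged proteins in a state from which they can fold, and pass them between chaperone machines or to degradation. When unfolded protein accumulates in the cytosol, heat shock factor 1 (HSF1) is released from chaperones, binds the heat shock elements of promoters and switches on Hspa1a, Hspa1b, Hsph1, Dnajb1, Hspb1, Bag3 and the inducible HSP90 gene together. In liver, fever, oxidants, ischaemia and changes of feeding and body temperature are known to move these genes.

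The 2 genes whose levels changed, Hspa1a and Hspa1b, lie beside each other on the minus strand of chromosome 17 and carry almost the same promoter. Near-identical copies can take each other's probe signal. The bases before the start do not bear on that, because probes read transcripts, and probe sequences were not compared. The lines give the 250 bases before each start, 5′ to 3′ on the gene's strand, from RefSeq (GRCm38.p6), at chr17:34972157-34972406 for Hspa1a and chr17:34959239-34959488 for Hspa1b. Capitals mark a match to GAANNTTC, the shortest pair of facing units of the heat shock element.
Hspa1a: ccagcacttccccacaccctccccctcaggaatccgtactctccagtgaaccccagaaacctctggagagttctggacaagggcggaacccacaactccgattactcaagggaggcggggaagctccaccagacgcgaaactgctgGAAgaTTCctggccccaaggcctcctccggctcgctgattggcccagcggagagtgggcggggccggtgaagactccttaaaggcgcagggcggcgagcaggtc
Hspa1b: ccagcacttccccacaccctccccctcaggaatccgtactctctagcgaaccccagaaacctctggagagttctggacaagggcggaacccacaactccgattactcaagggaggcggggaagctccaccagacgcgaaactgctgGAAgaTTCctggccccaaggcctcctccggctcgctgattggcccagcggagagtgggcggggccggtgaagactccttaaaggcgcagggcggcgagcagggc

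Counted from 1 at the 5′ end of these runs, with the base of Hspa1a first and that of Hspa1b last, the promoters differ by C44T, T47C and T249G. Over the whole 300-base window, which adds 50 bases after the start and the further difference C276T, 296 bases are identical. The GAANNTTC match begins at base 147 in both, at position -104 from the start.

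Promoter windows of this kind were held for 7 of the 10 genes. GAANNTTC occurred in 6 of the 7 (not in Dnajb1), against 7.86% of all 32851 promoter windows. TTCNNGAA occurred in Hsph1 alone, against 8.52% of all windows, and Hsph1 was also the only one of the 7 with 3 alternating units (GAANNTTCNNGAA or TTCNNGAANNTTC), which 0.603% of all windows hold. Both short motifs read the same on either strand, and the longer ones contain both short ones. These are matches of letters and do not show binding. Outside the Hspa1 pair, 1 stretch of 30 bases with a match is shown for each gene, for Hsph1 (chr5:149636287-149636316, minus strand), Hspb1 (chr5:135887791-135887820, plus strand), Hspb8 (chr5:116422844-116422873, minus strand) and Bag3 (chr7:128523603-128523632, plus strand), with the matching letters in capitals. Further matches, not shown, begin at -97 in Hspb1 (GAANNTTC) and at -33 in Hsph1 (TTCNNGAA).
Hsph1: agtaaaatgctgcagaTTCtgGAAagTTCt
Hspb1: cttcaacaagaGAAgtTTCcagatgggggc
Hspb8: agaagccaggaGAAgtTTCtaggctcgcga
Bag3: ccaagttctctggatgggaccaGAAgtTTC

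One array stands apart and is named before the results. The liver of Sham AL replicate 4 carried markers of other tissues: the mean of 7 adrenal cortex genes was 8.93 on this array against 2.9 to 3.23 on the other 14, and the mean of 7 brown fat genes was 7.36 against 4.38 to 5.36. This array was also the highest of the 5 Sham AL arrays for 9 of the 9 heat shock genes. It was kept, and differences from Sham AL without it are given for the 9 genes, singly or as a range, and for other genes where they are named with a value. Means of hepatocyte markers, led by Alb, were 11.46 to 11.58 in RYGB, 11.59 to 11.73 in BWm and 11.35 to 11.57 in Sham AL, so the defining liver genes were high on every array. Of 12 marker lists, 2 held called genes in RYGB against BWm, the comparison in which Hspa1a and Hspa1b were called. In RYGB, 2 of 7 genes on the brown fat list were lower and 1 of 8 Kupffer cell and macrophage genes was higher. Of all genes, 6.36% were called, and the medians of these lists were -0.03 and 0.19. The same lists gave 2 lower and 1 higher in RYGB against Sham AL, with Sham AL replicate 4 kept, where 1.38% of all genes were called. In BWm against Sham AL, 1 gene of the brown fat list was higher and 1 lower, where 2.84% were called. The part of these cell types in the results was not tested.

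Inducible HSP70 differed between the groups and the other heat shock genes did not pass the test. In RYGB livers Hspa1b was 3.1-fold lower and Hspa1a 2.07-fold lower than in BWm livers (2 of 9 genes, both lower, where 6.36% of all genes were called and 2.34% were lower). In BWm livers Hspa1b was 3.37-fold higher than in Sham AL livers (1 of 9, where 2.84% of all genes were called and 1.53% were higher). Between RYGB and Sham AL livers 0 of the 9 passed, where 1.38% of all genes were called; 1 of the 9 (Hspb8) had an unadjusted p under 0.05, and the criterion of the study's methods (p under 0.05 and at least 1.5-fold) gave 0. A gene was called at an adjusted p under 0.05 in limma, with Benjamini-Hochberg adjustment over all 22180 genes. In bulk tissue, fewer cells of a type and less RNA per cell cannot be told apart.

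**Figure D1:**
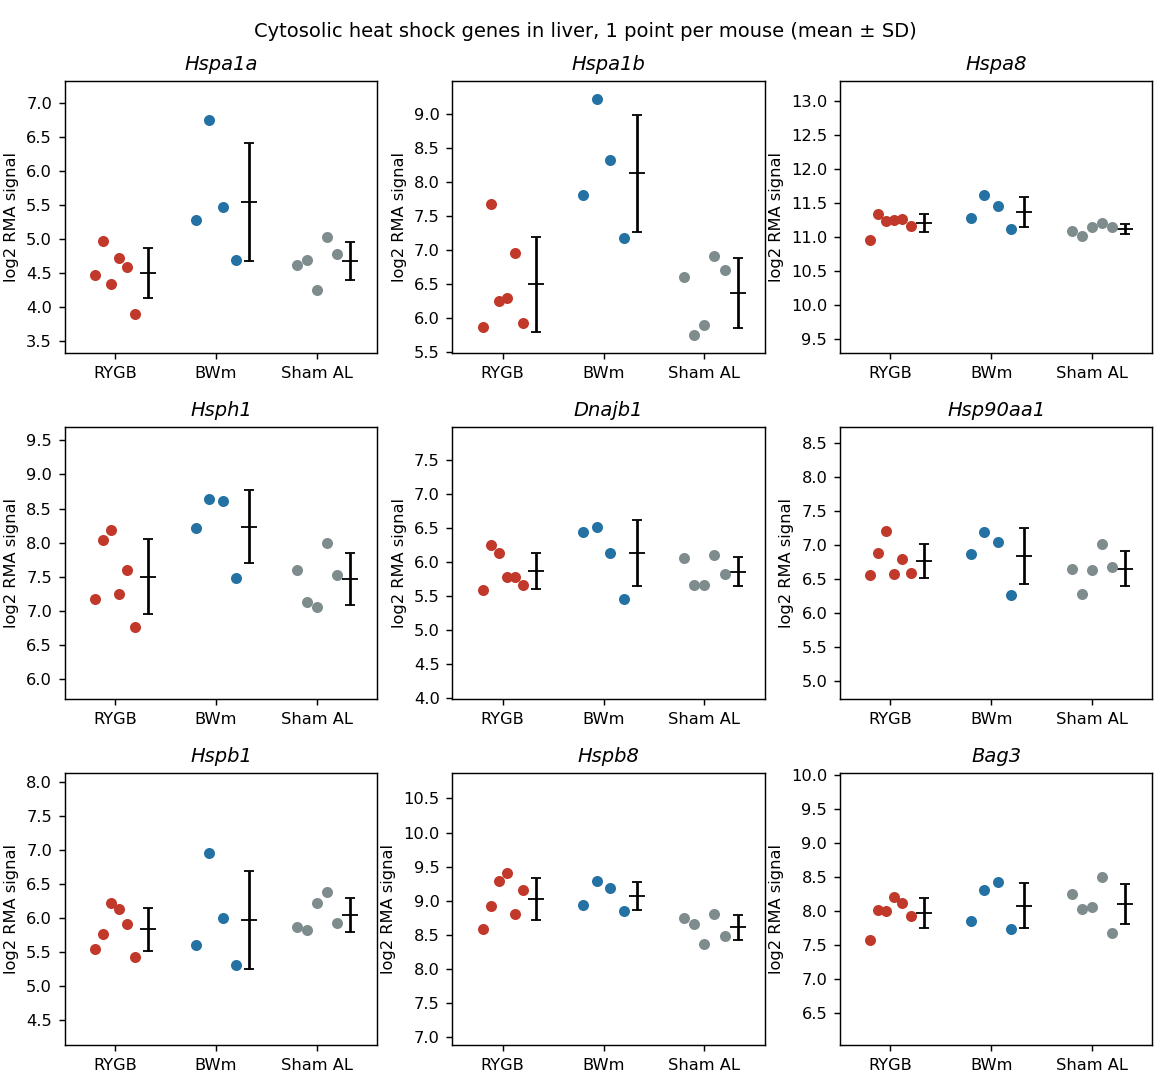
Log2 RMA signal (y axis) of each of the 9 heat shock genes, 1 point per mouse, with group mean and SD as black bars; RYGB (n = 6), BWm (n = 4) and Sham AL (n = 5) run from left to right, and every panel spans the same number of log2 units. Hspa1b and Hspa1a show high BWm points, led by BWm replicate 2 at 9.21 and 6.75, while Hspa8 and Bag3 stay within 0.66 and 0.91 log2 units over all arrays.

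Hspa1b encodes the inducible cytosolic HSP70, the main chaperone made after heat shock. Its log2 signal had a lowest value of 5.87, a median of 6.27 and a highest value of 7.68 in RYGB livers, was 7.8, 9.21, 8.32 and 7.17 in the 4 BWm livers, and was 6.6, 5.75, 5.9, 6.91 and 6.7 in the 5 Sham AL livers. All BWm livers lay above all Sham AL livers, as for 3.46% of all genes, and 5 of the 6 RYGB livers lay below every BWm liver; RYGB replicate 2, at 7.68, lay above BWm replicate 4, at 7.17. The difference of RYGB minus BWm was -1.63 ± 0.37 (log2, SE; limma adjusted p = 0.012, 95% interval -2.42 to -0.85). The difference of BWm minus Sham AL was 1.75 ± 0.39 (adjusted p = 0.019, interval 0.94 to 2.57). RYGB minus Sham AL was 0.12 ± 0.35 (adjusted p = 0.93, interval -0.61 to 0.86), an interval that leaves room for a change of over 1.5-fold either way. Without Sham AL replicate 4, the difference of BWm minus Sham AL was 1.89 (adjusted p = 0.017) and that of RYGB minus Sham AL 0.26 (adjusted p = 0.85).

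Hspa1a encodes a nearly identical HSP70 protein and is induced with Hspa1b. On the log2 scale it had a lowest value of 3.9, a median of 4.53 and a highest value of 4.97 in RYGB livers, was 5.28, 6.75, 5.47 and 4.7 in BWm livers, and was 4.62, 4.69, 4.26, 5.04 and 4.78 in Sham AL livers. Its mean over the 15 arrays was 4.84, at percentile 55.1 among all genes and not far above the array medians (3.89 to 4.02). With no background signal in the deposited values, how much of it is background was not tested. BWm replicate 2 was the highest of all 15 arrays, BWm replicate 4 lay among the other groups, and all 3 pairs of groups overlap. RYGB minus BWm was -1.05 ± 0.28 (adjusted p = 0.033, interval -1.65 to -0.45), with 4 of the 6 RYGB livers below every BWm liver. BWm minus Sham AL was 0.87 ± 0.3 (adjusted p = 0.13, interval 0.25 to 1.5), and RYGB minus Sham AL was -0.18 ± 0.27 (adjusted p = 0.84, interval -0.74 to 0.38).

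How much of each of these signals belongs to which copy was not tested. A further probe set that names both Hspa1a and Hspa1b, with a mean of 2.71, below the median of every array (3.89 to 4.02), gave -0.46 ± 0.16 for RYGB minus BWm and 0.54 ± 0.16 for BWm minus Sham AL (both adjusted p = 0.15, over all 41345 clusters).

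The calls of this pair changed with single animals. Without BWm replicate 2, the difference of RYGB minus BWm was -1.27 for Hspa1b (adjusted p = 0.058) and -0.65 for Hspa1a (adjusted p = 0.11). For Hspa1a the call against BWm also ended without BWm replicate 3 (-1.08, adjusted p = 0.073) and without RYGB replicate 3, 5 or 6 (-1.02, -1.07 and -0.93). For Hspa1b the call of BWm against Sham AL ended without BWm replicate 2 (1.39, adjusted p = 0.084), BWm replicate 3 (1.69, adjusted p = 0.069) or Sham AL replicate 2 (1.6, adjusted p = 0.055). With BWm replicate 4 left out instead, the differences were larger: -1.95 for Hspa1b and -1.33 for Hspa1a in RYGB minus BWm, and 2.07 and 1.16 in BWm minus Sham AL, where Hspa1a then passed the threshold (adjusted p = 0.035).

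**Figure D2:**
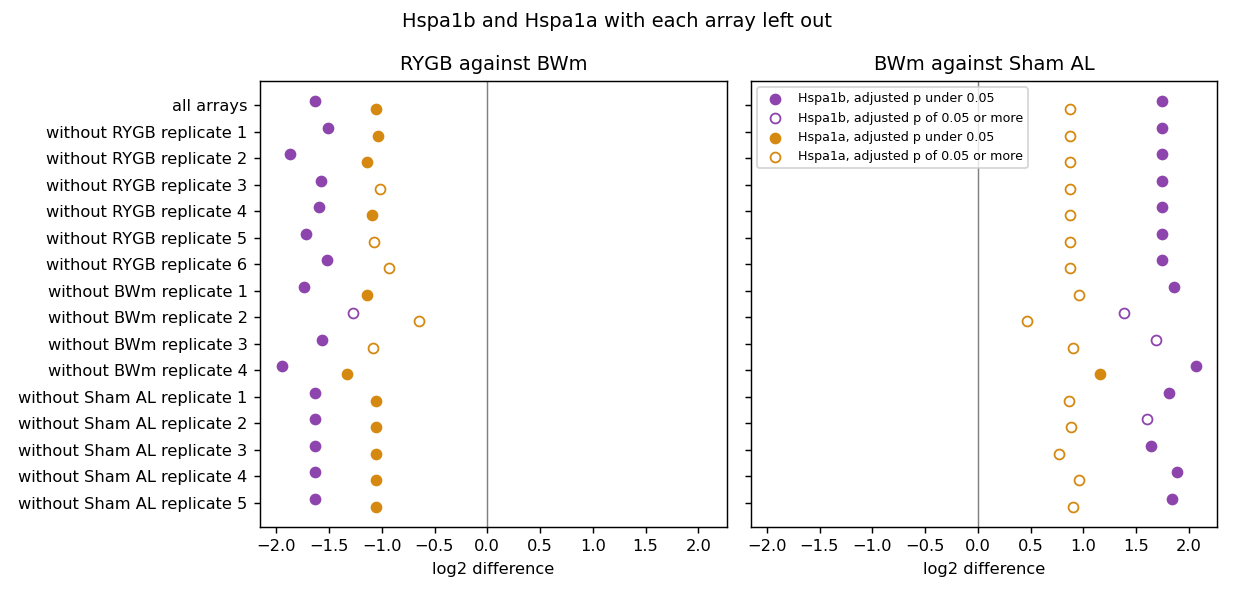
Log2 difference (x axis) of Hspa1b and Hspa1a with all arrays and with each array left out in turn (rows), for RYGB against BWm and BWm against Sham AL; filled points have an adjusted p under 0.05. No point crosses 0; the smallest differences come without BWm replicate 2 (-1.27 and -0.65 against BWm) and the largest without BWm replicate 4 (-1.95 and -1.33).

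Hspa8 is the constitutive HSC70, which folds new proteins and drives chaperone-mediated autophagy and the uncoating of clathrin vesicles. The RMA signal (log2) had a lowest value of 10.96, a median of 11.24 and a highest value of 11.33 in RYGB livers, was 11.28, 11.62, 11.46 and 11.11 in BWm livers, and was 11.08, 11.01, 11.14, 11.21 and 11.14 in Sham AL livers. The groups overlap throughout, and the whole span over 15 arrays was 0.66 log2 units. Differences were -0.17 ± 0.11 for RYGB minus BWm (adjusted p = 0.46) and 0.25 ± 0.11 for BWm minus Sham AL (adjusted p = 0.29). RYGB minus Sham AL was 0.08 ± 0.1 (adjusted p = 0.79, interval -0.13 to 0.3). The 3 further probe sets that name Hspa8 alone gave -0.46, -0.43 and -0.42 for RYGB minus BWm and 0.51, 0.32 and 0.33 for BWm minus Sham AL, with 0 called over all clusters. The probe sets behind -0.43 and -0.42 had almost the same signal on each array, so they are not separate readings. In the order given, the 3 ran from 6.32 to 7.73, 8.2 to 9.55 and 8.175 to 9.55 over the arrays. Each span was wider than that of the probe set used.

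Hsph1 encodes HSP110, which exchanges the nucleotide of HSP70 and helps it to pull aggregates apart. The log2 values had a lowest of 6.76, a median of 7.42 and a highest of 8.19 in RYGB livers, were 8.21, 8.64, 8.61 and 7.48 in BWm livers, and were 7.6, 7.13, 7.05, 7.99 and 7.53 in Sham AL livers. BWm replicates 1, 2 and 3 lay above all livers of the other groups, and BWm replicate 4 lay among them. RYGB minus BWm was -0.73 ± 0.27 (adjusted p = 0.14, interval -1.31 to -0.16) and BWm minus Sham AL was 0.77 ± 0.28 (adjusted p = 0.17, interval 0.17 to 1.37). Neither passed over all genes; without BWm replicate 4, RYGB minus BWm was -0.98 and passed (adjusted p = 0.042). RYGB minus Sham AL was 0.04 ± 0.26 (adjusted p = 0.97).

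Dnajb1 encodes HSP40, the J protein that delivers clients to HSP70 and triggers its ATPase. Log2 signals of this gene had a lowest value of 5.59, a median of 5.78 and a highest value of 6.25 in RYGB livers, were 6.44, 6.52, 6.13 and 5.46 in BWm livers, and were 6.07, 5.66, 5.66, 6.1 and 5.83 in Sham AL livers. BWm livers held both the highest (replicate 2) and the lowest (replicate 4) value of all 15 arrays. The differences were -0.27 ± 0.18 for RYGB minus BWm (adjusted p = 0.5) and 0.27 ± 0.19 for BWm minus Sham AL (adjusted p = 0.55). RYGB minus Sham AL lay between -0.36 and 0.37 by its 95% interval.

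Bag3 couples HSP70 to the small heat shock proteins and to selective autophagy. Its signal (log2) had a lowest value of 7.57, a median of 8 and a highest value of 8.2 in RYGB livers, was 7.85, 8.3, 8.42 and 7.74 in BWm livers, and was 8.24, 8.03, 8.06, 8.49 and 7.68 in Sham AL livers. The highest value was that of Sham AL replicate 4, and the groups overlap. Differences were -0.11 ± 0.17 for RYGB minus BWm (adjusted p = 0.82, interval -0.45 to 0.24) and -0.02 ± 0.17 for BWm minus Sham AL (adjusted p = 0.97, interval -0.38 to 0.34; 0.07 without Sham AL replicate 4). RYGB minus Sham AL was -0.13 ± 0.15 (adjusted p = 0.79).

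Hsp90aa1 encodes the inducible form of cytosolic HSP90, which matures kinases and steroid receptors. By array, its log2 signal had a lowest value of 6.56, a median of 6.69 and a highest value of 7.21 in RYGB livers, was 6.86, 7.19, 7.04 and 6.26 in BWm livers, and was 6.65, 6.28, 6.63, 7.01 and 6.68 in Sham AL livers. RYGB replicate 3 was the highest and BWm replicate 4 the lowest of the 15. Differences were -0.07 ± 0.18 for RYGB minus BWm (adjusted p = 0.9), 0.19 ± 0.18 for BWm minus Sham AL (adjusted p = 0.7) and 0.12 ± 0.17 for RYGB minus Sham AL (adjusted p = 0.83).

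Hspb1 and Hspb8 are small heat shock proteins, which hold unfolded protein without ATP; Hspb8 works in a complex with Bag3. Hspb8 had a lowest log2 signal of 8.59, a median of 9.03 and a highest of 9.4 in RYGB livers, measured 8.94, 9.29, 9.19 and 8.84 in BWm livers, and 8.74, 8.66, 8.36, 8.8 and 8.48 in Sham AL livers. All BWm livers lay above every Sham AL liver, as for 3.46% of all genes, and 5 of the 6 RYGB livers lay above them too. The differences were 0.42 ± 0.14 for RYGB minus Sham AL (adjusted p = 0.19, interval 0.12 to 0.72) and 0.46 ± 0.16 for BWm minus Sham AL (adjusted p = 0.14, interval 0.12 to 0.79), and neither passed over all genes. Without Sham AL replicate 4 these were 0.47 and 0.5 (adjusted p = 0.17 and 0.13). RYGB minus BWm was -0.04 ± 0.15 (adjusted p = 0.95, interval -0.36 to 0.28).

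Hspb1 encodes HSP27 (HSP25 in the mouse), which also guards actin filaments. The log2 signal had a lowest value of 5.42, a median of 5.84 and a highest value of 6.22 in RYGB livers, was 5.61, 6.96, 6 and 5.31 in BWm livers, and was 5.87, 5.82, 6.22, 6.38 and 5.93 in Sham AL livers. BWm replicate 2 was the highest of all livers, with Sham AL replicate 4 next, and the remaining BWm livers lay within or below the other groups. Differences were -0.14 ± 0.24 for RYGB minus BWm (adjusted p = 0.84), -0.07 ± 0.25 for BWm minus Sham AL (adjusted p = 0.93) and -0.21 ± 0.23 for RYGB minus Sham AL (adjusted p = 0.77). A further probe set that names Hspb1 alone had a mean of 3.48, below the median of every array (3.89 to 4.02). It gave -0.19 ± 0.15, 0.31 ± 0.15 and 0.12 ± 0.14 in the same order, none of them called over all clusters.

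Set beside all genes, the differences were as follows. The members were chosen with earlier results of these data known, so this is a description and not a test of the set. In RYGB minus BWm the median of the 9 was -0.17, against 0.001 for all genes. There 0 of the 9 were positive, against 50.3% of all genes. In BWm minus Sham AL it was 0.27, against -0.015 for all genes, with 7 of the 9 positive, against 47.0%. In RYGB minus Sham AL it was 0.04, against -0.003 for all genes, with 6 of the 9 positive, against 49.2%. The 9 genes varied together from mouse to mouse, so their signs are not independent readings. Without Sham AL replicate 4, RYGB minus Sham AL ran from -0.12 (Hspb1) to 0.47 (Hspb8) with 0 of the 9 passing, and BWm minus Sham AL from 0.01 (Hspb1) to 1.89 (Hspa1b) with 1 passing. BWm and Sham AL livers did not overlap for 2 of the 9 genes (Hspa1b and Hspb8, both higher in BWm), where 6.85% of all genes did not overlap in either direction. RYGB overlapped with BWm and with Sham AL for 9 of the 9, where 7.61% and 2.39% of all genes did not overlap.

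**Figure D3:**
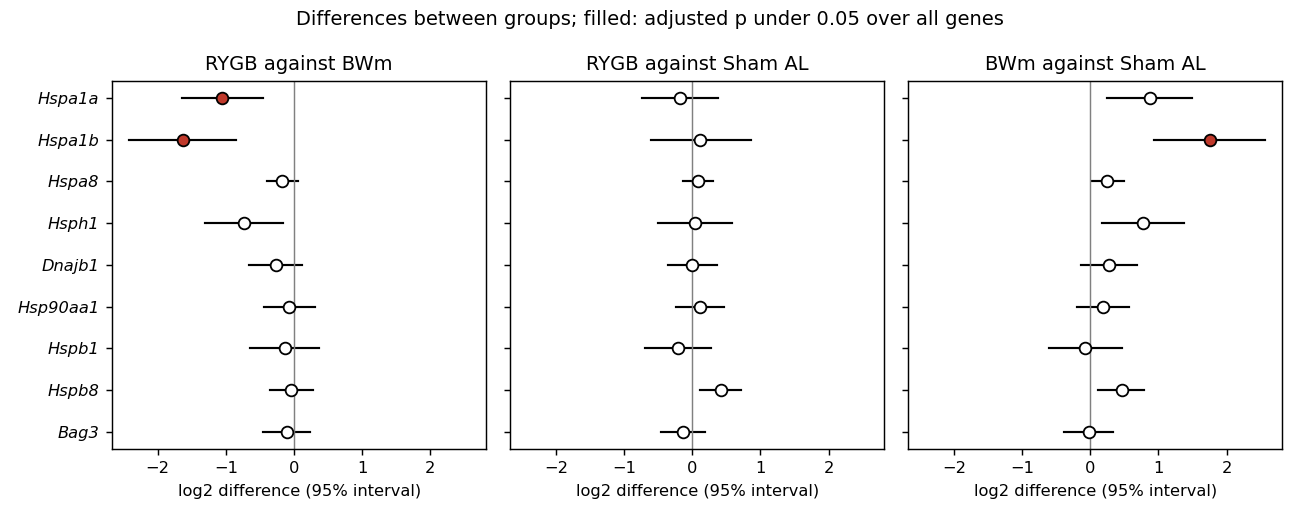
Log2 difference (x axis, point) with its 95% interval (line) for each of the 9 genes in the 3 comparisons; filled points have an adjusted p under 0.05 over all 22180 genes. Against BWm the RYGB differences of Hspa1b (-1.63) and Hspa1a (-1.05) are filled and all 9 points lie below 0, while in BWm against Sham AL Hspa1b (1.75) is filled.

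The 9 genes varied together from mouse to mouse. BWm replicate 2 was the highest of all 15 arrays for 6 of the 9 genes and the highest BWm array for 8, and BWm replicate 4 was the lowest BWm array for 9. Averaged over the genes, each taken minus its own mean over all arrays, the arrays lay at -0.43, 0.18, 0.08, -0.07, -0.04 and -0.41 in RYGB, at 0.23, 0.92, 0.49 and -0.24 in BWm, and at -0.08, -0.35, -0.32, 0.19 and -0.16 in Sham AL. The BWm livers thus spanned more of this average than either other group, and their lowest lay among the other groups. The values were not scaled, so genes with a wide range over the arrays weigh most in this average. Hspa1b and Hspa1a ranged over 3.46 and 2.86 log2 units, against 0.66 for Hspa8. On BWm replicate 2 the adrenal cortex mean was 3.18 and the brown fat mean 4.75, within the ranges of 2.9 to 3.23 and 4.38 to 5.36 given above for all arrays but Sham AL replicate 4.

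**Figure D4:**
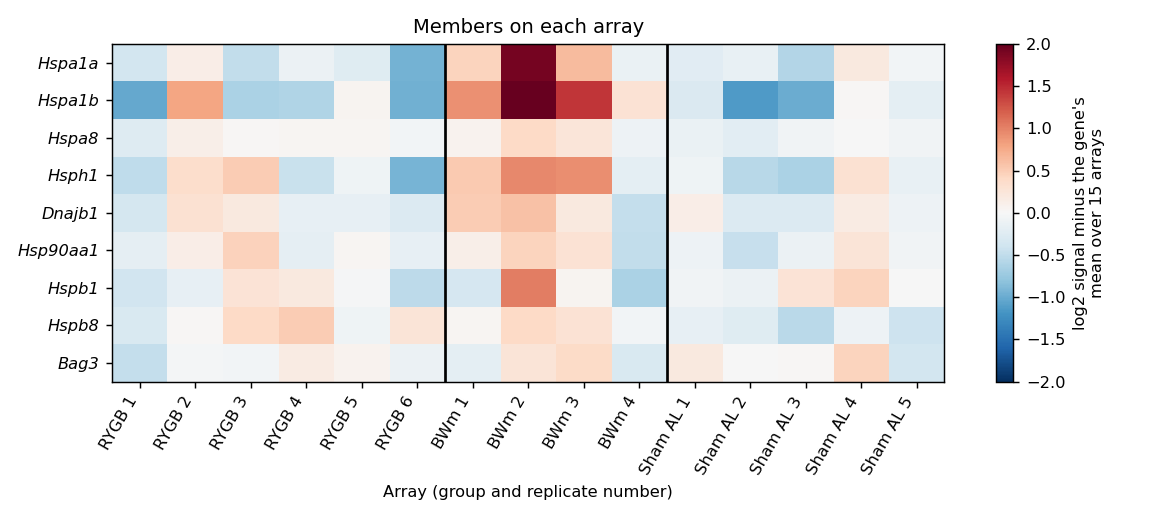
Log2 signal of each gene (rows) minus its mean over the 15 arrays (colour scale, log2 units; values above 2 take the darkest red), by array (columns, RYGB, BWm and Sham AL from left to right). BWm replicate 2 is red in every row and BWm replicate 4 is pale or blue in all rows but Hspa1b.

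With the group means removed, Pearson's r between pairs of the 9 genes over the 15 arrays lay between 0.26 and 0.89 for the 36 pairs, with a median of 0.67. These are descriptions, and the points share arrays and their normalization. Among Hspa1a, Hspa1b, Hspa8, Hsph1, Dnajb1 and Hsp90aa1, the 15 pairs lay between 0.58 (Hspa1a with Hsp90aa1) and 0.89 (Hsph1 with Hsp90aa1). Hspb8 was the loosest, at 0.26 with Hspa1b and 0.69 with its partner Bag3. Without Sham AL replicate 4 the 36 pairs lay between 0.21 and 0.88, and without BWm replicate 2 between 0.12 and 0.89.

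The 10 other genes most like the average of the 9, by Pearson's r over the 15 arrays with group differences kept, were Car15 (0.94), Hsdl2 (0.92), Mkks (0.91), Osbpl11 (0.89), Man1a2 (0.88), Ppm1g (0.87), P4ha1 (0.87), Lats2 (0.86), Lman2l (0.86) and Cstf1 (0.86). They were chosen for a pattern that is high in BWm, so their differences between groups are a description and are not tested. Car15, a carbonic anhydrase, averaged 3.93 in RYGB, 4.41 in BWm and 3.93 in Sham AL. Lats2, a kinase of the Hippo pathway, averaged 5.31 in RYGB, 5.73 in BWm and 5.32 in Sham AL. Hsdl2, a peroxisomal dehydrogenase, averaged 7.87 in RYGB, 8.4 in BWm and 7.83 in Sham AL.

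The rest of the chaperone system was followed on 11 lists, with 111 of 122 genes measured. In RYGB against BWm, 18 of the 111 were higher and 6 lower, where 6.36% of all genes were called. In BWm against Sham AL, 3 were higher and 10 lower, where 2.84% were called, and in RYGB against Sham AL 4 were higher and 0 lower, where 1.38% were called. Without Sham AL replicate 4 these totals were 25, 13 and 4.

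Regulators of the response did not pass. Of 5 measured heat shock factors and their partners, 0 were called by limma in any comparison and 0 had an unadjusted p under 0.05. Hsf2, a factor that binds the same elements, averaged 6.72 ± 0.29 in RYGB (SD, n = 6), 6.85 ± 0.36 in BWm (n = 4) and 6.55 ± 0.14 in Sham AL (n = 5). Hsf1 was not matched in the probe table. A further list of possible HSF1 targets had 15 measured genes, Fos, Jun and Egr1 among them, and their control by HSF1 was not tested. Of these 15, 2 were higher in RYGB than in BWm and 0 lower, where 6.36% of all genes were called. Sqstm1, the autophagy receptor p62, rose by 0.93 ± 0.11 (adjusted p = 0.00011), and it was also higher in RYGB than in Sham AL (0.84 ± 0.11, adjusted p = 0.00052; 0.85 without Sham AL replicate 4). Its log2 signal was 10.53 to 11.06 in RYGB, 9.79 to 10.04 in BWm and 9.89 to 10.26 in Sham AL, so RYGB overlapped with neither. Of all genes, 7.61% did not overlap in RYGB against BWm and 2.39% in RYGB against Sham AL. Klf6, a zinc finger factor, rose by 0.89 ± 0.2 against BWm (adjusted p = 0.012), and this call ended without BWm replicate 3 (adjusted p = 0.058). Both are induced by other stress pathways too, and their direction in RYGB against BWm was opposite to that of Hspa1a and Hspa1b.

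Among the other cytosolic chaperones, 1 gene of each of 4 lists was lower in RYGB than in BWm, and 0 were higher. Of all genes, 2.34% were lower. On lists of 6 to 19 genes a single call says little about the list. Hspa2, another HSP70, fell by 0.58 on the log2 scale (± 0.13, 1 of 7 measured, adjusted p = 0.011), at 4.43 to 4.98 in RYGB and 5.04 to 5.55 in BWm. Bag4, an exchange factor of HSP70, fell by 0.56 (± 0.12, 1 of 6, adjusted p = 0.0075), at 7.34 to 7.75 in RYGB and 7.89 to 8.29 in BWm. Neither gene's groups overlapped, as for 7.61% of all genes in RYGB against BWm. Dnajb4, a J protein close to Dnajb1, fell by 0.35 (± 0.09, 1 of 14, adjusted p = 0.026). Ahsa2, a relative of the activator of the HSP90 ATPase, fell by 0.51 (± 0.14, 1 of 19, adjusted p = 0.035). The call of Hspa2 ended for 1 of the 15 arrays left out in turn (BWm replicate 2, adjusted p = 0.054). That of Dnajb4 ended for 4 (BWm replicates 1, 2 and 3 and RYGB replicate 5, adjusted p up to 0.099). That of Ahsa2 ended for 7 (BWm replicates 1, 2 and 3 and RYGB replicates 1, 4, 5 and 6, adjusted p up to 0.14). Dnajb4 and Ahsa2 also did not pass with the compared groups only (adjusted p = 0.05 and 0.054) or with a replicate block (0.12 and 0.091). Bag4 passed with each array left out (adjusted p up to 0.039). Under the criterion of the study's methods (p under 0.05 and at least 1.5-fold), Hspa2, Bag4, Dnajb4 and Ahsa2 were not called.

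Fkbp5, the HSP90 co-chaperone of steroid receptors and a known glucocorticoid target, was the only co-chaperone of 19 to pass in BWm against Sham AL. Its log2 signal was 6.98, 7.63, 7.34 and 6.47 in BWm, against 5.74, 5.64, 5.57, 6.07 and 5.92 in Sham AL, with no overlap. Of all genes, 2.84% were called in this comparison and 6.85% did not overlap. For Fkbp5, the values of BWm minus Sham AL follow. The difference was 1.31 ± 0.25 (adjusted p = 0.008), and 1.39 without Sham AL replicate 4. RYGB livers lay at 5.74 to 7.16, and RYGB minus BWm was -0.81 ± 0.24 (adjusted p = 0.056). As for 6 of the 9 heat shock genes, BWm replicate 2 was the highest of the 15 arrays, and as for all 9, replicate 4 was the lowest of BWm.

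Of 7 other small heat shock proteins and of 13 subunits of the chaperonin TRiC and prefoldin, 0 passed in any comparison in limma. At an unadjusted p under 0.05 each of these lists had 1 gene in RYGB against BWm and 0 in the other comparisons. These were Hspb11 (0.34 ± 0.13) and Cct3 (0.41 ± 0.13, adjusted p = 0.07).

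The chaperones of the endoplasmic reticulum, which answer to separate stress sensors, ran the other way in both comparisons with BWm. In RYGB against BWm, 15 of 16 measured genes were higher and 0 lower, with a median difference of 0.94, where 6.36% of all genes were called. In BWm against Sham AL, 10 of 16 were lower and 0 higher, with a median of -0.56, where 2.84% of all genes were called. The calls of Hsp90b1, Pdia3 and Calr there ended for 5, 6 and 2 of the 15 arrays left out in turn. In RYGB against Sham AL 3 of 16 (Creld2, Dnajb9 and Sdf2l1) were higher, where 1.38% were called. Creld2 passed with each array left out, but the calls of Sdf2l1 and Dnajb9 ended for 5 and 2 of the 15 (adjusted p up to 0.074 and 0.071), with all transcript clusters (0.079 and 0.052) and with a replicate block (0.096 and 0.051). Hspa5, the HSP70 of this compartment, measured 9.08 to 9.82 in RYGB, 7.97 to 8.53 in BWm and 8.94 to 9.19 in Sham AL. RYGB minus BWm was 1.28 ± 0.15 (adjusted p = 7.4e-05), and BWm minus Sham AL was -0.9 ± 0.15 (adjusted p = 0.0036; -0.93 without Sham AL replicate 4). BWm thus held the highest inducible cytosolic HSP70 signals and the lowest signals of Hspa5, and the differences of these lists come from the same arrays.

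**Figure D5:**
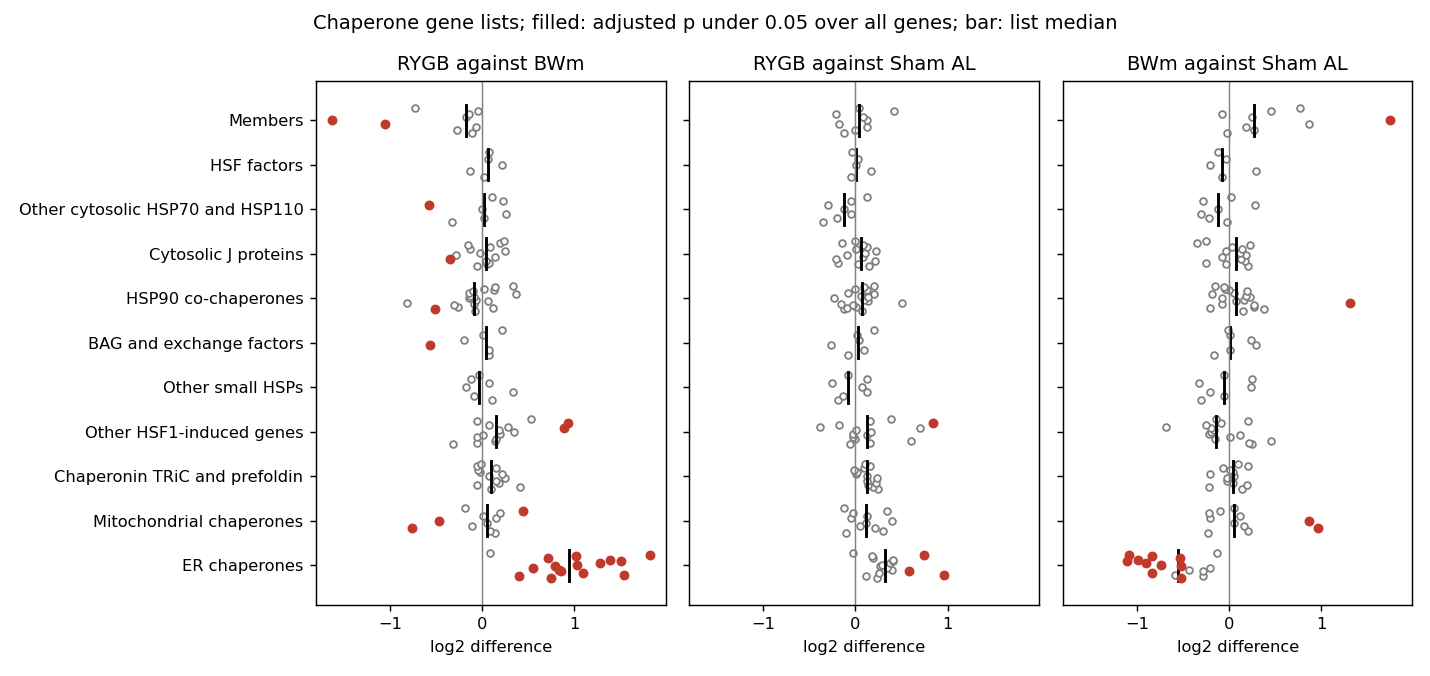
Log2 difference (x axis) of each measured gene, by chaperone list (rows), in the 3 comparisons; filled points have an adjusted p under 0.05 and the black bar is the median of the list. The medians of the cytosolic heat shock genes and of the endoplasmic reticulum chaperones lie on opposite sides of 0 in RYGB against BWm (-0.17 and 0.94) and in BWm against Sham AL (0.27 and -0.56, where 7 of the 9 heat shock genes are above 0).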

How the data were processed

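Liver RNA was hybridised to GeneChip Mouse Gene 2.0 ST arrays, 1 per mouse. Per the labels, the authors processed the arrays by RMA in Affymetrix Expression Console 1.4.1.46 (the submitters' processing notes name it with the Transcriptome Analysis Console). Their deposited table gives a log2 signal for each of 41345 transcript clusters. It holds no background signal. Clusters with 1 symbol (23521) were kept, and 1 per gene was taken, the one with the highest mean, which left 22180 genes with no filter on level. Hsp90ab1 was not matched.

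The 3 contrasts came from 1 fit of group means over all 15 arrays (limma 3.58.1, R 4.3.3, lmFit and eBayes, 12 residual degrees of freedom), two-sided, with Benjamini-Hochberg adjustment over all genes and a threshold of 0.05. The fit was tested on simulated data. Errors after differences are SE, and precision is limited by how many arrays there are. The titles call the samples biological replicates. Same-numbered arrays of different groups had correlations of deviations from -0.17 to 0.19, so the numbers were not taken as pairs. Members and lists were chosen with earlier results of these data known. Named genes were the members, list genes past the threshold or among the 3 smallest p of a list, and the 10 genes most like the members. Promoters came from RefSeq (GRCm38.p6); the build behind the probe annotation is not given in the sources used here. Alternatives were a level filter, quantile normalization, array-median subtraction, averaging a gene's clusters, testing all clusters, compared groups only, trended and robust priors, array weights, a replicate block, an animal number term, the methods' one-way ANOVA (p under 0.05 and at least 1.5-fold) and leaving out each array. Tables and plots were made in Python 3.11.15 with matplotlib 3.10.9 and pandas 2.3.3.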

Additional observations from a re-analysis of the deposited data

How the results depend on the processing

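RYGB against BWm gave 2 called heat shock genes; 1 remained with all transcript clusters, with the compared groups only, with a replicate block and with an animal number term, in each case with Hspa1a lost (adjusted p = 0.078, 0.054, 0.073 and 0.054) and Hspa1b kept. BWm against Sham AL gave 1; it was 0 with all transcript clusters (Hspa1b adjusted p = 0.055) and 2 with the methods' one-way ANOVA, which added Hsph1. RYGB against Sham AL gave 0 under every alternative run. With single arrays left out, the counts ran from 0 to 3 in RYGB against BWm, from 0 to 2 in BWm against Sham AL and from 0 to 0 in RYGB against Sham AL. The same-numbered arrays share only a number; with the replicate block the counts were 1, 1 and 0 in this order, and all genes called were 903 against 1411, 325 against 629, and 174 against 306. All genes called also moved to 857 with the ANOVA (RYGB against BWm), 1011 with the level filter (BWm against Sham AL) and 169 with all clusters (RYGB against Sham AL) and, with arrays left out, to 930 without BWm replicate 3 (RYGB against BWm), to 284 without BWm replicate 2 or 3 and 382 without Sham AL replicate 2 (BWm against Sham AL), and to 176, 200 and 144 without RYGB replicate 4, RYGB replicate 6 or Sham AL replicate 2 (RYGB against Sham AL), so the shares of all genes called that stand beside the heat shock genes move too. The chaperone lists in RYGB against Sham AL gave 2 genes with all clusters and 2 with the block, against 4.

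No called difference changed sign. Among uncalled ones, RYGB minus Sham AL became -0.02 for Hspa8 with the mean of its clusters, -0.01 and -0.1 for Hsph1 and -0.04 and -0.07 for Dnajb1 with quantile normalization and the animal number term. BWm minus Sham AL became 0.12 (mean of clusters) and 0.02 (array weights) for Hspb1, and 0.04 (array medians subtracted) and 0.02 (array weights) for Bag3. With arrays left out, signs changed for RYGB minus Sham AL of Hspa1b (-0.11 to 0.26), Hsph1 (-0.1 to 0.19) and Dnajb1 (-0.07 to 0.06), RYGB minus BWm of Hsp90aa1 (-0.26 to 0.05), Hspb1 (-0.36 to 0.19), Hspb8 (-0.11 to 0.05) and Bag3 (-0.22 to 0.01), and BWm minus Sham AL of Hspb1 (-0.4 to 0.15) and Bag3 (-0.14 to 0.09). Apart from the clusters that the settings themselves add or drop, the causes were not tested. The descriptions give animal numbers whose meaning is not stated: under 50 for 3 RYGB, 0 BWm and 1 Sham AL mice, so number and group are partly confounded.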

Other observations

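Among 11 chaperones and proteases of the mitochondrion, 1 was higher and 2 were lower in RYGB than in BWm, where 6.36% of all genes were called. In BWm against Sham AL, 2 were higher and 0 lower, where 2.84% were called. Of the called genes, Clpx and Grpel2 shared the direction of Hspa1b in both comparisons with BWm, and Lonp1 did not. Trap1 (-0.18 and 0.06) and Dnaja3 (-0.11 and 0.16) shared it too but were not called. Clpx, the unfoldase of the ClpXP protease, measured 7.51 to 8.21 in RYGB livers, 7.93, 8.85, 9.03 and 8.2 in BWm livers and 7.36 to 7.69 in Sham AL livers. RYGB minus BWm was -0.76 ± 0.18 (limma adjusted p = 0.016), a call that ended without BWm replicate 2 or 3 (adjusted p up to 0.08). BWm minus Sham AL was 0.97 ± 0.19 (adjusted p = 0.0098), and 0.93 without Sham AL replicate 4. These 2 groups did not overlap, as for 6.85% of all genes. Grpel2, a nucleotide exchange factor of mitochondrial HSP70, measured 6.85 to 7.13 in RYGB livers, 7.39, 7.73, 7.73 and 7.04 in BWm livers and 6.28 to 6.79 in Sham AL livers. BWm minus Sham AL was 0.87 ± 0.14 (adjusted p = 0.0025; 0.79 without Sham AL replicate 4) and held with each array left out. RYGB minus BWm was -0.47 ± 0.14 (adjusted p = 0.046), a call that ended for 12 of the 15 arrays left out. Lonp1, the main protease of the matrix, was higher in RYGB than in BWm (0.44 ± 0.12, adjusted p = 0.036), and this call ended for 7 of the 15.

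Of 27 sets of 4 to 6 values (9 genes in 3 groups), 0 held a value past Dixon's limit for an outlier. For 4 values that limit is a gap of 0.829 of the whole range, and in 6 of the 9 genes the array farthest from the rest of BWm was not replicate 2, so for BWm this count says little.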
